A study of Mus musculus with 12 samples.

Results

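The 10 core circadian clock genes (Per1, Per2, Per3, Cry1, Cry2, Arntl, Clock, Nr1d1, Nr1d2 and Dbp) were examined in muscle stem cells (MuSCs) that were freshly isolated, cultured, or cultured under compression. They were taken by their symbols from the 55335 genes counted, and all 10 had enough reads to enter the test, which covered 22635 genes. MuSCs were sorted by FACS from the hindlimb muscles of Pax7-ZsGreen mice, in which a green fluorescent reporter marks cells expressing Pax7, the defining factor of these cells. Each of 4 groups had 3 RNA-seq libraries. Freshly isolated cells (F) were not cultured. The 2d-U and 5d-U cells were kept uncompressed for 2 and 5 days on coated plastic in medium rich in serum and growth factor. The 2+3d-C cells spent 2 days in the same culture and then 3 days under a compression pillar, a device that presses on the cells from above, so that they were in culture as long as the 5d-U cells. Every group carried the reporter, and the groups other than 2+3d-C were untreated. The labels do not say whether the 3 libraries of a group came from separate mice, so the p-values measure the spread between these libraries only. The time of day at which mice were killed or cells were lysed was not given in the sources used here, and its share in any difference between groups cannot be told apart from the group.

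The mammalian clock is a feedback loop that runs in most cells, muscle and its stem cells included. ARNTL (also called BMAL1) pairs with CLOCK and switches on genes with E-boxes in their promoters, among them the Per and Cry genes, the Nr1d genes and Dbp. PER and CRY proteins return to the nucleus and shut ARNTL and CLOCK down, while the nuclear receptors NR1D1 and NR1D2 (REV-ERB alpha and beta) repress genes with ROR elements, Arntl being the best known. In a cell population whose clocks run in step, genes of the E-box arm such as Nr1d1 and Dbp peak at another time of day than Arntl, so that a single harvest sees 1 phase of the cycle.

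Elements through which the loop is known to act were looked for in the promoters of these genes, and the matches are shown as a description. A promoter window from 250 bases before to 50 bases after the start was found in RefSeq (GRCm38.p6, the same build as mm10) for 9 of the 10 genes, all but Per2, and several genes had more than 1 start, which gave 13 windows. The E-box, CACGTG on both strands, was present before a start of Per1 and of Cry1. For comparison, it was found in 7.15% of all 32851 windows. The related element, AACGTG or its reverse complement, was present at Cry1, Cry2 and Nr1d1, against 4.68% of all windows. The D-box, bound by DBP and searched as TTATGTAA, its reverse complement or TTACGTAA, was present at 2 places in the Per3 window and in 1.06% of all windows. The core of the ROR element, TAGGTCA or its reverse complement, was present at Arntl and in 2.61% of all windows. The windows of Clock, Nr1d2 and Dbp held none of these letters, which says nothing about sites elsewhere in those genes. The lines below give the 250 bases before the start of Per1, Cry1 and Per3, each read 5′ to 3′ on the strand of the gene, and 30 bases of the first exon of Arntl, with the matched elements in capitals.
Per1 (chr11:69098699-69098948, plus strand, E-box 166 bases before the start): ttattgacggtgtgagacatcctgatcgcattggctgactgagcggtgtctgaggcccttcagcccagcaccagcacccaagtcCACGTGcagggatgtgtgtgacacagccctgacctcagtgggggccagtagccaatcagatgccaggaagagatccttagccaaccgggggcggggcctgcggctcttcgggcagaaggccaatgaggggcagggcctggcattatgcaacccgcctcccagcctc
Cry1 (chr10:85185055-85185304, minus strand, the related element 79 and the E-box 60 bases before the start): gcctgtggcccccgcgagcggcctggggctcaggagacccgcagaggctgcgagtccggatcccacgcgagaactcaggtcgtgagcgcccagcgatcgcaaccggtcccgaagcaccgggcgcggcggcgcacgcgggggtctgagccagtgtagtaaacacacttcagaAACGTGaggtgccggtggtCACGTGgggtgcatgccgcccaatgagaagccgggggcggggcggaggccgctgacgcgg
Per3 (chr4:151044666-151044915, minus strand, D-boxes 205 and 158 bases before the start): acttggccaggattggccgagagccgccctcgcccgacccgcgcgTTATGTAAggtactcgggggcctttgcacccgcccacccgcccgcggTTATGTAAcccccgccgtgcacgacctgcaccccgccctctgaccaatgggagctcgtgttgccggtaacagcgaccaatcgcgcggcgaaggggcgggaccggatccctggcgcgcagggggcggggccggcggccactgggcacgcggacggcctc
Arntl (chr7:113207530-113207559, plus strand, ROR core beginning at base 31 of the transcript): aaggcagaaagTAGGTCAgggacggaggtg
In the annotation of the count files, the Per1 window lies inside the gene, since another transcript starts further upstream, and 1 of its bases is exonic. Of the Cry1 window 10 bases are exonic, and of the Per3 window none.

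Over the 4 groups, the mean of each clock gene was higher in F and 2+3d-C than in both uncompressed cultures. For Dbp the step from 5d-U was small, with 46.6% of the F mean in 5d-U and 50.6% in 2+3d-C. With edgeR's quasi-likelihood test, adjusted over all genes tested, 9 of the 10 differed somewhere among the groups, Dbp being the exception (adjusted p = 0.0716). Over all genes tested, 44.3% did so. As a share of the F mean, the mean level (RPKM, reads scaled for exon length and library size) of the 10 genes ran from 5.95% to 33.6% in 2d-U, with a median of 10.7%, and from 4.79% to 46.6% in 5d-U, with a median of 16.4%. In 2+3d-C it ran from 50.6% to 229%, with a median of 126%. In bulk RNA, fewer cells of a type and less RNA per cell cannot be told apart, and markers of other cell types and of dividing cells, given further on, also differed between the groups.

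**Figure D1:**
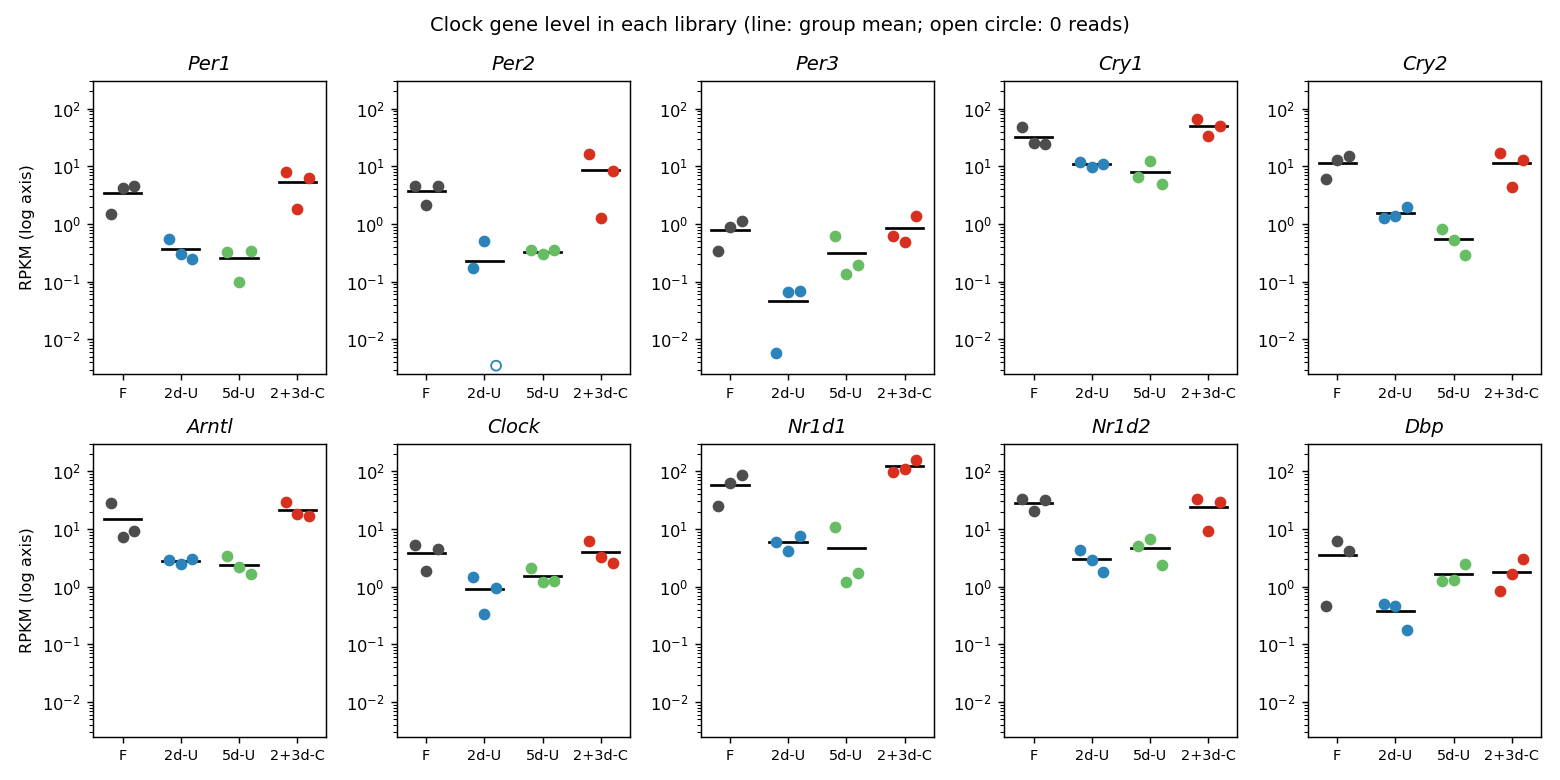
Level of each clock gene in RPKM on a log axis, with 1 point per library, 3 libraries per group and a line at the group mean. The open circle marks the 2d-U library with 0 reads of Per2. Nr1d1 in 2+3d-C, at 97.8 to 158, lies above each F library, and the 2d-U and 5d-U points of Arntl, Cry1, Cry2, Per1 and Nr1d1 lie below each F and 2+3d-C point.

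Depth ran from 12540745 to 62424851 reads on genes per library, so that 3 reads stood for 0.0481 to 0.239 CPM, the count scaled for library size. All 8 markers of MuSCs and myogenic cells had reads in every library. In 4 libraries (F replicates 4 and 5, 5d-U replicates 1 and 6) reads also fell on 1853 autosomal genes of families that are silent in muscle, at 0.641 to 7.24 reads per kilobase, against 0.00967 to 0.229 in the other 8 libraries. Such stray reads would make up to 51.5% of the reads of Per1, 47.8% of those of Per2, 27.3% of Per3 and 20.6% of Cry2 in a single library, and at most 13.4% for each of the other members. The log2 fold changes in each comparison are therefore also given without these 4 libraries. This leaves F and 5d-U with 1 library each, so that their tests assume the lone library to vary like those of the other groups. Counts of genes called in that fit are not given.

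The clock genes were lower in uncompressed culture than in fresh cells. Between F and 2d-U all 10 fell, against 33.3% of all genes tested that fell, with log2 fold changes from −4.07 for Per2 to −1.57 for Cry1. Their median was −3.23, and that of all genes tested was −1.63. In a fit of genes averaging 5 CPM or more, the medians were −3.52 over the 9 clock genes left and −0.19 over all genes fitted. Every 2d-U library lay below every F library for 9 of the 10, all but Dbp, and this was so for 32.1% of all genes. Between F and 5d-U 6 genes fell, namely Arntl, Cry1, Cry2, Nr1d1, Nr1d2 and Per1, against 8.90% of all genes. The fall of Per2 to 5d-U was 11.3-fold but just missed the threshold (adjusted p = 0.0511; 0.00291 with DESeq2), and Clock, Per3 and Dbp had log2 fold changes of −1.35, −1.32 and −1.10 with adjusted p from 0.130 to 0.505. The median over the 10 was −2.61 and over all genes −0.41. With the 5 CPM filter the medians were −2.87 over the 9 clock genes left and −0.03 over all genes fitted. Without the 4 libraries with stray reads, the medians over the 10 were −2.31 in 2d-U and −2.89 in 5d-U, against −0.11 and 0.06 over all genes. In 5d-U the log2 fold changes then ran from −4.39 for Nr1d1 to 1.51 for Dbp. Of the log2 fold changes in 2d-U, those of Per2 (−4.36) and Clock (−2.51) were at least as large as with all libraries, those of Per3 (−2.83), Per1 (−2.02), Nr1d1 (−2.07) and Cry2 (−1.94) were smaller, that of Arntl (−3.30) was larger and that of Dbp was −0.25. With a model term for these libraries 6 were called lower in 2d-U, against 17.1% of all genes. Per1, Per3, Nr1d1 and Dbp were not called there (adjusted p from 0.0521 to 0.376).

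Between 2 and 5 days of uncompressed culture no clock gene was called, and DESeq2 called 0 as well. In edgeR 3 of the 10 had an unadjusted p under 0.05, against 7939 of the 22635 genes tested. The log2 fold changes from 2d-U to 5d-U ran from −1.49 for Cry2 (95% interval −2.71 to −0.27) to 2.75 for Per3 (0.53 to 4.96). Of all genes 2.12% were called in this comparison. Without the 4 libraries with stray reads, the log2 fold changes ran from −2.31 for Nr1d1 to 1.77 for Dbp.

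Compressed cells held more clock transcripts than uncompressed cells of the same age in culture. Against 5d-U, 7 of the 10 genes were higher in 2+3d-C and none was lower, while 9.14% of all genes tested were higher. The 7 were Nr1d1 (26.2-fold), Per2 (25.9-fold), Cry2 (21.0-fold), Per1 (21.0-fold), Arntl (8.95-fold), Cry1 (6.36-fold) and Nr1d2 (5.03-fold). The median log2 fold change was 2.92 over the 10 clock genes and −1.05 over all genes. Clock, Per3 and Dbp were not called, with log2 fold changes of 1.41 (adjusted p = 0.0902), 1.42 (adjusted p = 0.264) and 0.12 (adjusted p = 0.930). In 8 of the 10 genes every 2+3d-C library lay above every 5d-U library, which held for 12.6% of all genes. Because well-expressed genes are called more often, the test was also run on the 10816 genes averaging 5 CPM or more. There Per3 dropped out and 7 of the 9 clock genes left were higher, against 21.1% of these genes. The median log2 fold change was 3.16 over the 9 clock genes and −0.02 over all genes of that fit, so the median of all genes depended on the filter.

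Against 2d-U, the state from which compression began, 9 of the 10 were higher in 2+3d-C, against 16.0% of all genes, and Dbp was not called (log2 fold change 2.25, adjusted p = 0.0971; 0.0352 with DESeq2). For all 10 genes every 2+3d-C library exceeded every 2d-U library, as it did for 18.1% of all genes. The median log2 fold change was 2.97, and that of all genes was 0. Without the 4 libraries with stray reads the log2 fold changes against 2d-U ran from 2.14 to 5.27. Their median was 2.96, against 0.28 over all genes. The log2 fold changes against the single 5d-U library left ran from 0.48 for Dbp to 6.66 for Nr1d1. Their median was 2.96, against 0 over all genes. Per1 then stood at 5.76 and Cry1 at 2.04. With the stray reads deducted instead of the libraries, 7 were called higher than in 5d-U and 9 than in 2d-U, against 13.8% and 18.4% of all genes. With a model term for these libraries Per2 (log2 4.59, adjusted p = 0.0869) and Nr1d2 (log2 1.98, adjusted p = 0.0663) were no longer called against 5d-U. There 5 clock genes were called, against 5.64% of all genes that were higher.

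Between 2+3d-C and F no clock gene was called by edgeR or by DESeq2, which called 6.40% and 17.6% of all genes in either direction. None of the 10 had an unadjusted p under 0.05 in edgeR, against 8328 of the 22635 genes tested. This does not show equal levels, since the intervals were wide. Log2 fold changes ran from −0.98 for Dbp (95% interval −2.94 to 0.97) to 1.20 for Per2 (−1.13 to 3.52), and for none of the 10 genes did the interval lie wholly within 1 log2 unit of 0. The median over the 10 was 0.31, against −0.76 over all genes. These signs depended on scaling, as the median was 0.10 with RLE size factors and −0.10 with library size alone. In the fit of genes averaging 5 CPM or more, the medians were 0.31 over the clock genes left and −0.06 over all genes fitted. Nr1d1 was the only 1 of the 10 for which every 2+3d-C library lay above every F library, as did 8.79% of all genes, and its log2 fold change of 1.08 had an interval of −0.40 to 2.55. Without the 4 libraries with stray reads, the log2 fold changes ran from −0.47 for Nr1d2 to 2.27 for Nr1d1, with a median of 0.93. The 3 comparisons with F share the F libraries, and those of 2+3d-C with 2d-U and 5d-U share the compressed libraries, so they are not independent of each other.

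**Figure D2:**
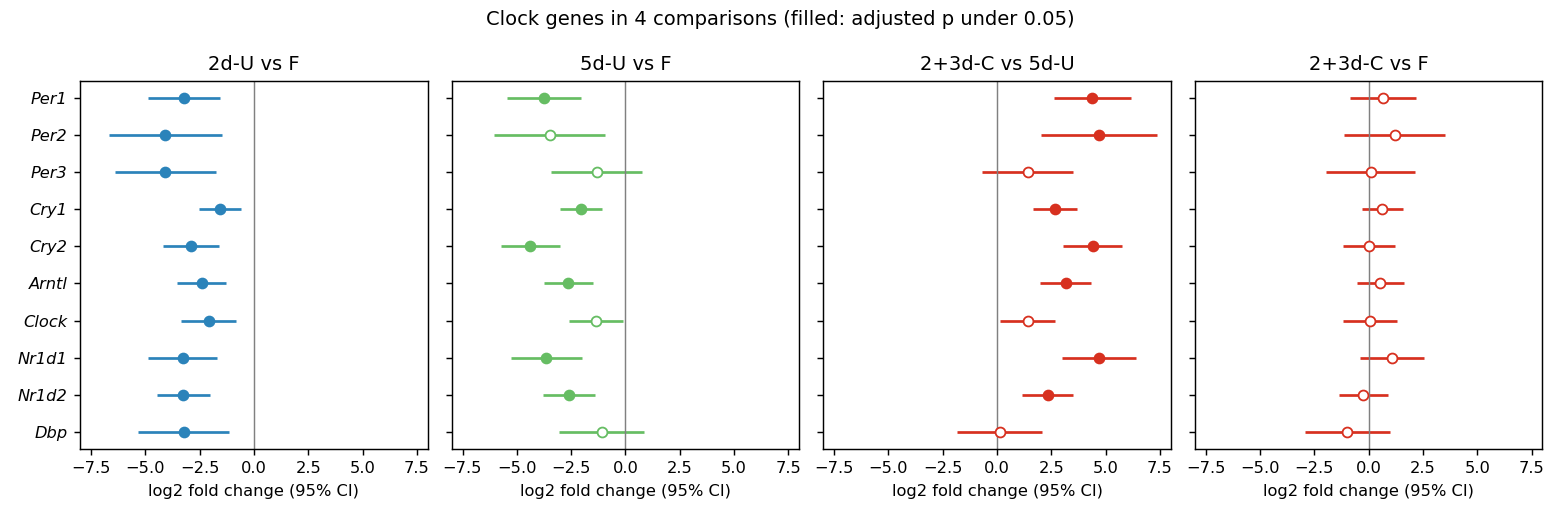
Log2 fold change of each clock gene (point) with its 95% interval (line) in 4 comparisons, each of 3 against 3 libraries; filled points have an adjusted p under 0.05. All points lie below 0 in 2d-U vs F and above 0 in 2+3d-C vs 5d-U, and in 2+3d-C vs F all 10 intervals include 0.

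The activators come first in the loop. Arntl (chr7:113207465-113314126 in mm10) stood at 28.0, 7.27 and 9.16 RPKM in F replicates 1, 4 and 5, and at 2.95, 2.47 and 3.00 in 2d-U replicates 1, 2 and 3. In 5d-U replicates 1, 2 and 6 it was 3.38, 2.17 and 1.66 RPKM, and in 2+3d-C replicates 4, 5 and 10 it was 29.7, 18.1 and 16.7. The 6 uncompressed libraries lay close together and below every F and 2+3d-C library, whereas F replicate 1 held 3.41-fold the mean of the other F libraries. Arntl fell 5.28-fold from F to 2d-U (log2 −2.40 ± 0.53 SE, adjusted p = 0.0042; 3.12-fold without F replicate 1) and was 8.95-fold higher in 2+3d-C than 5d-U cells (log2 3.16 ± 0.55, adjusted p = 0.0011). It was called against 5d-U in all settings tried. For the other genes the libraries are given in the same order.

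Clock (chr5:76209868-76304792), the partner of ARNTL and a histone acetyltransferase, was less abundant and moved less. It had 5.23, 1.90 and 4.43 RPKM in F cells, 1.44, 0.342 and 0.933 in 2d-U cells, 2.10, 1.21 and 1.25 in 5d-U cells, and 6.20, 3.33 and 2.53 in 2+3d-C cells. F replicate 4 overlapped the 5d-U libraries, and the lowest 2+3d-C library stood close above the highest 5d-U library. The rise over 2d-U was 4.44-fold (adjusted p = 0.0182), but it was no longer called without 2d-U replicate 2 or 3 or without 2+3d-C replicate 4, with adjusted p up to 0.0839, nor with library size alone for scaling (0.0741) or in a fit of those 2 groups (0.0502). DESeq2 also called Clock higher than in 5d-U (adjusted p = 0.0349). The fall from F to 2d-U (4.25-fold) was likewise lost without 2d-U replicate 2 or 3 (adjusted p up to 0.0720).

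The Period genes encode the repressors whose build-up sets the length of the cycle. Per1 (chr11:69095217-69109960) had 1.51, 4.23 and 4.52 RPKM in F cells, 0.556, 0.299 and 0.247 in 2d-U cells, 0.324, 0.0990 and 0.347 in 5d-U cells, and 7.98, 1.82 and 6.30 in 2+3d-C cells. No uncompressed library reached any F or 2+3d-C library. Per1 was 21.0-fold higher in 2+3d-C than 5d-U cells (log2 4.39 ± 0.82 SE, adjusted p = 0.00185), and 9.28-fold lower in 2d-U than in F (adjusted p = 0.00699).

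Per2 (chr1:91415982-91459324) spread most among the compressed libraries, with 16.2, 1.28 and 8.34 RPKM. It had 4.63, 2.11 and 4.50 RPKM in F cells, 0.174, 0.501 and 0 in 2d-U cells, and 0.348, 0.297 and 0.350 in 5d-U. The groups F and 2+3d-C overlapped, and both lay above all uncompressed libraries. The low compressed library, replicate 5, was also the shallowest of the series, and its value still rested on 62 reads. The 2d-U library at 0 allows up to 3 reads, or 0.0827 CPM. Per2 was 25.9-fold higher in 2+3d-C than 5d-U cells (log2 4.69 ± 1.26, adjusted p = 0.0157) and 38.7-fold higher than in 2d-U (adjusted p = 0.00906, but 0.0583 in a fit of those 2 groups). These sizes depended on single libraries. Without 2+3d-C replicate 4 they were 14.4-fold against 5d-U and 21.5-fold against 2d-U, and the latter was 97.4-fold without 2d-U replicate 2 and 25.6-fold without 2d-U replicate 3. Its fall from F to 2d-U was 16.8-fold (adjusted p = 0.0202), and it was not called without 2d-U replicate 1 (adjusted p = 0.0546). Its log2 fold change was −5.39 without 2d-U replicate 2 and −3.46 without 2d-U replicate 3, against −4.07 with all libraries.

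Per3 (chr4:151003652-151044665), whose promoter window carried the pair of D-boxes shown above, had the lowest mean level of the 10 in F, 2d-U and 2+3d-C. It had 0.337, 0.888 and 1.13 RPKM in F cells, 0.00589, 0.0651 and 0.0691 in 2d-U cells, resting on 3 to 30 reads, then 0.610, 0.138 and 0.193 in 5d-U cells, and 0.629, 0.489 and 1.39 in 2+3d-C cells. The 5d-U library with the highest value was replicate 1, in which stray reads would make 27.3% of its reads, and it overlapped F and 2+3d-C. Per3 was 17.9-fold higher in 2+3d-C than 2d-U cells (adjusted p = 0.0136), a call lost without 2d-U replicate 1 (adjusted p = 0.0517). Against 5d-U its log2 fold change of 1.42 had an interval of −0.68 to 3.51.

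Cry1 (chr10:85131700-85185064), the stronger of the cryptochrome repressors and the gene with the E-box and the related element shown above, was abundant throughout. It had 47.3, 25.2 and 24.7 RPKM in F cells, 12.1, 9.72 and 10.8 in 2d-U cells, 6.41, 12.2 and 4.90 in 5d-U cells, and 65.7, 33.1 and 50.5 in 2+3d-C cells. No uncompressed library reached any F or 2+3d-C library. Cry1 was 6.36-fold higher in 2+3d-C than 5d-U cells (log2 2.67 ± 0.47 SE, adjusted p = 0.00122). Its fall to 2d-U was 2.98-fold (adjusted p = 0.0166), and leaving out any of the 2d-U libraries ended the call (adjusted p up to 0.0734).

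Cry2 (chr2:92403646-92434043), the second cryptochrome, had 5.93, 12.8 and 15.2 RPKM in F cells, 1.29, 1.35 and 1.93 in 2d-U cells, 0.811, 0.529 and 0.286 in 5d-U cells, and 17.1, 4.43 and 12.7 in 2+3d-C cells. It stood lower in 5d-U than in 2d-U in every library, by 2.81-fold between the means, but that step was not called (adjusted p = 0.112). With an adjusted p of 0.000316, Cry2 had the smallest of the 10 in 2+3d-C against 5d-U (21.0-fold, log2 4.39 ± 0.64). It also had the smallest in 5d-U against F (20.8-fold lower, adjusted p = 0.000406; 33.1-fold without F replicate 1).

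The nuclear receptors REV-ERB form the second repressive loop, and Nr1d1 had the highest mean level of the 10 in F and in 2+3d-C. Nr1d1 (chr11:98767932-98775333), encoding REV-ERB alpha, had 25.3, 62.0 and 85.3 RPKM in F cells, 5.94, 4.18 and 7.63 in 2d-U cells, 10.9, 1.20 and 1.75 in 5d-U cells, and 97.8, 108 and 158 in 2+3d-C cells. The compressed libraries were the highest of all 12, and the uncompressed ones the lowest. Nr1d1 was 26.2-fold higher in 2+3d-C than 5d-U cells (log2 4.71 ± 0.80 SE, adjusted p = 0.000941). The size depended on the single high 5d-U library, replicate 1, as the log2 fold change was 6.35 without it. That library also had 5.85% of its reads on mitochondrial genes, against 0.0681% to 1.15% in the other 11 libraries. Nr1d1 overlaps Thra on the other strand over 8.55% of its exon length, and the counting ignored strand and dropped reads that touched both genes.

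Nr1d2 (chr14:18204054-18239127), encoding REV-ERB beta, had 33.2, 20.3 and 31.7 RPKM in F cells, 4.29, 2.91 and 1.77 in 2d-U cells, 5.11, 6.68 and 2.39 in 5d-U cells, and 33.3, 9.14 and 28.9 in 2+3d-C cells. F and 2+3d-C overlapped, and compressed replicate 5 again stood lowest of its group. Nr1d2 was 5.03-fold higher in 2+3d-C than 5d-U cells (log2 2.33 ± 0.56, adjusted p = 0.00812) and fell 9.50-fold from F to 2d-U (adjusted p = 0.00112).

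Dbp (chr7:45705088-45710203), a D-box factor that carries the rhythm to metabolic genes, stood apart from the rest. It had 0.458, 6.11 and 4.20 RPKM in F cells, 0.504, 0.457 and 0.177 in 2d-U cells, 1.25, 1.30 and 2.46 in 5d-U cells, and 0.826, 1.65 and 2.97 in 2+3d-C cells. Here the 5d-U values lay within the range of 2+3d-C, and F replicate 1 was at the level of 2d-U. The fall from F to 2d-U was called (9.44-fold, adjusted p = 0.0217), but leaving out F replicate 4 or 5, or any 2d-U library, took the adjusted p up to 0.0888. The fall was 14.5-fold without F replicate 1 and 6.11-fold without F replicate 4. Without the 4 libraries with stray reads, where F replicate 1 alone stands for F, the log2 fold change was −0.25, and with a model term for them it was −1.65. Against 5d-U the compressed cells differed by log2 0.12 (95% interval −1.82 to 2.06), which leaves room for a change in either direction. Dbp shares 18.0% of its exon length with Sphk2 on the opposite strand, where reads were assigned to neither gene.

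The order of the group means was 2+3d-C, F, then the uncompressed groups for 8 genes, and F before 2+3d-C for Nr1d2 and Dbp. In no gene did the upper 2 groups differ past the threshold, and in none did 2d-U and 5d-U. The step from the upper pair to the lower pair was called for Per1, Cry1, Cry2, Arntl, Nr1d1 and Nr1d2. It was not called between F and 5d-U for Per2, Per3 and Clock, nor between 2+3d-C and 5d-U for Dbp.

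Genes known to peak at different times of day were both low in uncompressed culture. They were sorted as genes known to be driven by E-boxes or by ROR elements. The promoter matches above were not used, under which Cry1 holds an E-box and Nr1d2 and Dbp hold no match. The mean log2(RPKM + 0.1) of Dbp, Nr1d1, Nr1d2 and Per3 was 2.87 ± 0.83 (SD, n = 3) in F, 0.04 ± 0.17 in 2d-U cells, 0.76 ± 0.59 in 5d-U cells and 2.96 ± 0.56 in 2+3d-C cells. For Arntl and 3 genes that peak nearer to it (Npas2, Clock and Cry1) it was 3.22 ± 0.68, 0.52 ± 0.52, 0.57 ± 0.22 and 3.77 ± 0.54 in the same order. Within a library, the Dbp and Nr1d1 set minus the Arntl set gives their balance, as a description without a test. It was −2.04, 0.63 and 0.35 in F cells, −0.88, 0.02 and −0.59 in 2d-U cells, 0.65, −0.15 and 0.08 in 5d-U cells, and −1.59, −0.80 and −0.05 in 2+3d-C cells. The ranges of F and 2+3d-C overlapped, and F replicate 1 was the lowest of all.

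**Figure D3:**
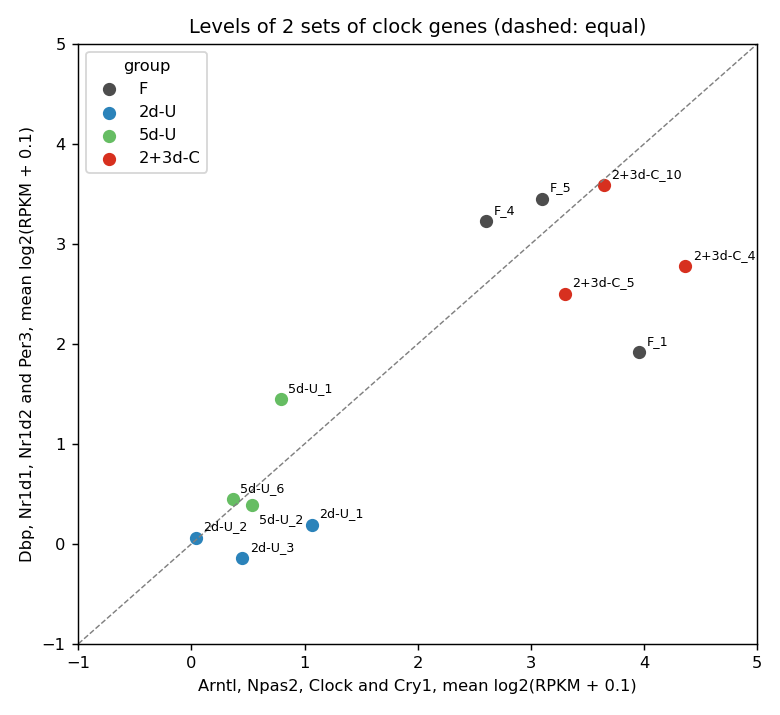
Mean log2(RPKM + 0.1) of Dbp, Nr1d1, Nr1d2 and Per3 (y axis) against that of Arntl, Npas2, Clock and Cry1 (x axis), with 1 labelled point per library and the dashed line at equal values. The 6 uncompressed libraries lie at the lower left and the 6 others at the upper right; F replicate 1 lies below the line at 1.92 on the y axis, and F replicates 4 and 5 lie above it.

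The 3 freshly isolated libraries were not alike. In replicate 1, 5 clock genes stood above both other libraries and 5 below. Above were Arntl (3.41-fold the mean of replicates 4 and 5), Cry1 (1.90-fold), Clock (1.65-fold), Per2 (1.4-fold) and Nr1d2 (1.27-fold). Below were Dbp (11.3-fold), Per3 (2.99-fold), Nr1d1 (2.92-fold), Per1 (2.89-fold) and Cry2 (2.36-fold). Of 23 other genes of the clock pathway, taken up below, 9 stood above both other libraries and 14 below. Among those above were Csnk1a1 (2.88-fold), Rora (2.82-fold), Npas2 (1.86-fold) and Usp2 (1.54-fold). Bhlhe41 (9.58-fold), Hlf (4.07-fold) and Tef (1.85-fold) were among those below. How many of all genes stood above or below both was not counted. The same library had the lowest summed mature myofiber markers, 15.7 RPKM against 803 and 1485, and 0.229 stray reads per kilobase against 5.12 and 7.24. The part of these in the split was not tested.

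Other genes of the clock pathway were taken as a list of 23 chosen for their role, all of which were tested. Against 5d-U, 10 were higher in 2+3d-C and 2 lower, with 11 not called, against 9.14% and 13.4% of all genes. Their median log2 fold change was 0.83, and it was the same with genes at 0 reads in a whole group set at the bound that 3 reads allow. Against 2d-U, 11 were higher and 1 lower, against 16.0% and 8.63% of all genes, and from F to 2d-U 10 fell, against 33.3% of all genes, and none rose. Between 2+3d-C and F none was called by edgeR, against 6.40% of all genes. In edgeR 7 had an unadjusted p under 0.05, against 8328 of the 22635 genes tested, and DESeq2 called 7, against 17.6% of all genes. Without the 4 libraries with stray reads, the median log2 fold change of the 23 was 1.24 for 2+3d-C against 5d-U. That of all genes was 0. For 2d-U against F the median of the 23 was −1.26, and that of all genes was −0.11.

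Among the activators and receptors of this list, Npas2, which can stand in for Clock as partner of ARNTL, was at 3.60 to 8.12 RPKM in F cells, 0 to 0.236 in 2d-U cells, 0.0218 to 0.132 in 5d-U cells and 4.48 to 14.5 in 2+3d-C cells. Its compressed libraries lay far above all uncompressed ones (log2 6.99 ± 1.46 against 5d-U, adjusted p = 0.00365; 7.59 without 5d-U replicate 6). Rora, the receptor that activates ROR elements, was 33.2-fold higher in 2+3d-C than 5d-U cells (adjusted p = 0.000164). Arntl2, a second ARNTL, went the other way, with 0 reads in every 2+3d-C library and 29 to 68 in 5d-U cells. This makes it 58.4-fold lower against a floor of 3 reads over the group (adjusted p = 0.0400). That size left stray reads in, and deducting them took the 5d-U mean from 0.313 to 0.246 RPKM. The call of Arntl2 was lost without F replicate 4 or 5, 5d-U replicate 2 or 6 or any 2+3d-C library (adjusted p up to 0.111).

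Of the further repressors, Bhlhe40, which competes for E-boxes, was 30.6-fold higher in 2+3d-C than 5d-U cells (adjusted p = 0.00192), while its relative Bhlhe41 was 26.1-fold lower (adjusted p = 0.00591). The log2 fold change of Bhlhe40 was 7.07 without 5d-U replicate 1 and 4.25 without 2+3d-C replicate 10, against 4.93, and Bhlhe41 was 62.1-fold lower without 2+3d-C replicate 4 and 13.1-fold without 5d-U replicate 6. Nfil3, which opposes DBP at D-boxes, was 7.28-fold higher (adjusted p = 0.000352). Among D-box activators Hlf was higher (log2 5.27 ± 1.65, adjusted p = 0.0333), a call lost without F replicate 4 or 5, 5d-U replicate 2 (log2 4.66) or 6, or 2+3d-C replicate 4 (adjusted p up to 0.0924), and Tef was not called (log2 0.71, adjusted p = 0.236), as Dbp was not.

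Of 7 genes for kinases and ubiquitin ligases that set the life of PER and CRY, 3 were higher in 2+3d-C than 5d-U. Of all genes tested 9.14% were higher. Csnk1d (5.73-fold, adjusted p = 0.000365), Csnk1e (2.65-fold, adjusted p = 0.0226) and Fbxw11 (4.26-fold, adjusted p = 0.0219) were those 3. The call of Csnk1e was lost without 5d-U replicate 1 or 2 or 2+3d-C replicate 5 (adjusted p up to 0.113), and that of Fbxw11 without 5d-U replicate 1 or 6 or 2+3d-C replicate 4 (2.53-fold, adjusted p = 0.134), while without 5d-U replicate 2 it was 7.12-fold. Csnk1a1, Btrc and Gsk3b were not called, with log2 fold changes from −1.27 to 0.80. Nor was Fbxl21 (adjusted p = 0.0711), although it had 0 reads in every 2+3d-C library, 22.2-fold below 5d-U against the same floor. That size left stray reads in and rested on 16 reads per 5d-U library. With stray reads deducted, the 5d-U mean of Fbxl21 went from 0.141 to 0.0819 RPKM. Of clock-controlled outputs Usp2 (15.6-fold, adjusted p = 0.000112) and Noct (6.90-fold, adjusted p = 0.000448) were higher, whereas Wee1 and Nampt had log2 fold changes of 0.45 and 0.60 and were not called.

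**Figure D4:**
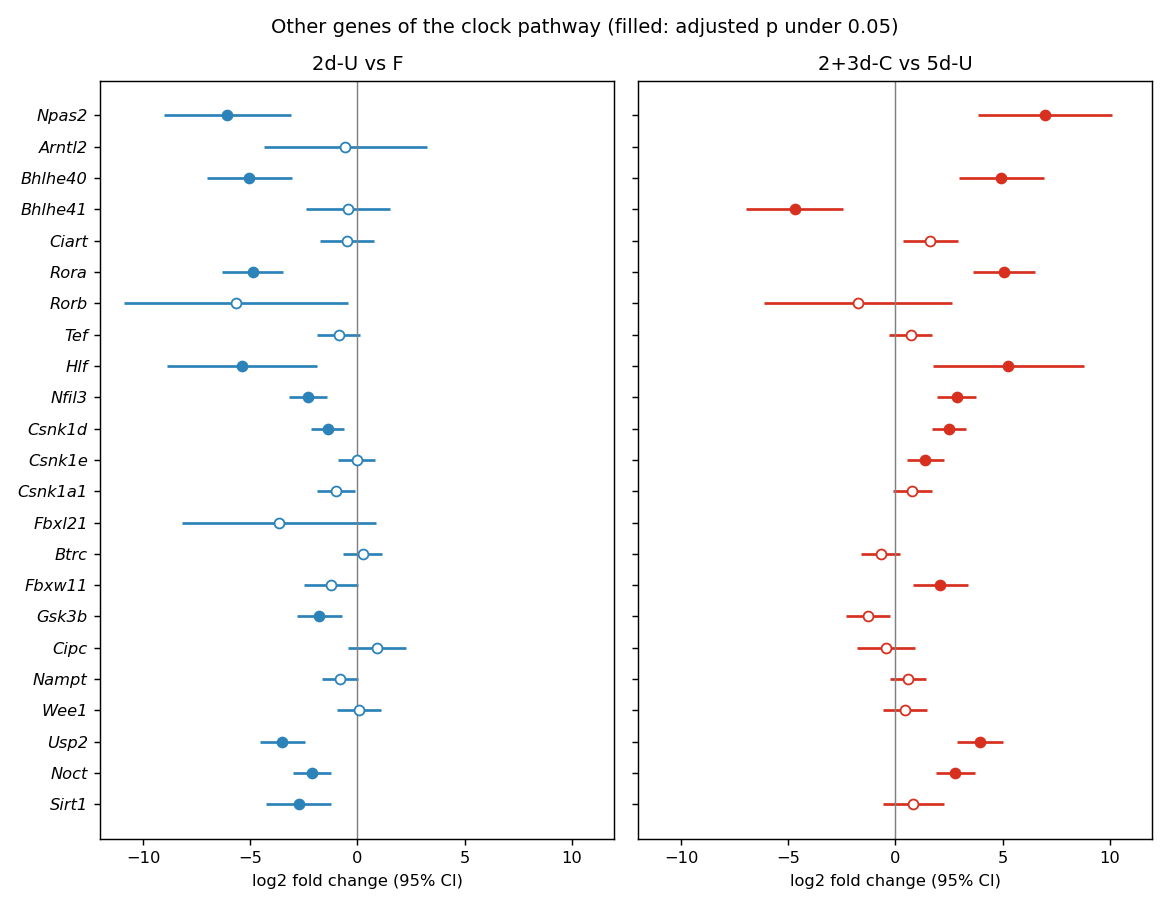
Log2 fold change (point) with 95% interval (line) of 23 other clock pathway genes for 2d-U vs F and 2+3d-C vs 5d-U, filled where the adjusted p is under 0.05; genes with 0 reads in all libraries of a group are left blank. Of the plotted and blank genes together, 10 fell in 2d-U, and 10 were higher and 2 lower in 2+3d-C.

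For each clock gene, the genes with the most similar profile over the 12 libraries were looked up among 10755 genes averaging 5 CPM or more, by the root mean square difference of centred log2 CPM. The closest matches were Edem1 to Cry1 (0.26), Zbtb21 to Arntl (0.29), Mib1 to Clock (0.33), Etnk1 to Nr1d2 (0.37) and Zbtb46 to Cry2 (0.45). Less close were Ndrg4 to Dbp (0.51), Pde8a to Per1 (0.54), Lgals3bp to Nr1d1 (0.71), Tle4 to Per2 (0.72) and Ash1l to Per3 (0.79). No clock gene had another clock gene as its nearest. The closest pair within the 10 was Arntl and Cry1 (0.51), and 25 other genes were nearer to Arntl than Cry1 was.

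Of 7 marker lists of other cell types, 5 were high in F, low in 2d-U and 5d-U and higher in 2+3d-C by their group medians. Summed over 5 endothelial markers, RPKM ran from 138 to 180 in F cells, 0.485 to 0.895 in 2d-U cells, 0.363 to 4.64 in 5d-U cells and 13.9 to 33.2 in 2+3d-C cells. Over 5 fibroadipogenic markers the ranges were 501 to 1290, 0.121 to 2.17, 6.05 to 34.0 and 63.4 to 173, and over 5 immune markers 253 to 657, 0.528 to 0.996, 1.08 to 81.6 and 4.17 to 58.0, in the same order of groups. Over 4 glial markers they were 63.8 to 99.9, 0 to 0.516, 0.156 to 2.11 and 27.5 to 50.5, and over 4 erythroid markers 149 to 705, 0 to 0.206, 0.0723 to 0.443 and 24.8 to 319. Up to 4 markers of a list were at 0 in a 2d-U library. In immune markers 5d-U replicate 1 exceeded all compressed libraries, and replicate 6, at 4.29, exceeded 2+3d-C replicate 10. In 2+3d-C the median of these 5 lists was 5.48% to 41.5% of that in F. The other lists had another order of groups. Smooth muscle and pericyte markers had medians of 256 RPKM in F, 33.8 in 2d-U, 289 in 5d-U and 136 in 2+3d-C, and mature myofiber markers 803, 56.0, 927 and 35.3, so that both were at F level or above in 5d-U and lower in 2+3d-C.

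Markers of dividing cells were high in uncompressed culture. Summed over 5 markers they ran from 4.18 to 16.3 RPKM in F cells, 288 to 315 in 2d-U cells, 231 to 391 in 5d-U cells and 0.363 to 1.08 in 2+3d-C cells. The 8 MuSC and myogenic markers ran from 904 to 2194 in F cells, 960 to 1153 in 2d-U cells, 986 to 1609 in 5d-U cells and 5695 to 6802 in 2+3d-C cells. The part of the cell mixture and of the share of dividing cells in the clock gene differences was not tested.

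**Figure D5:**
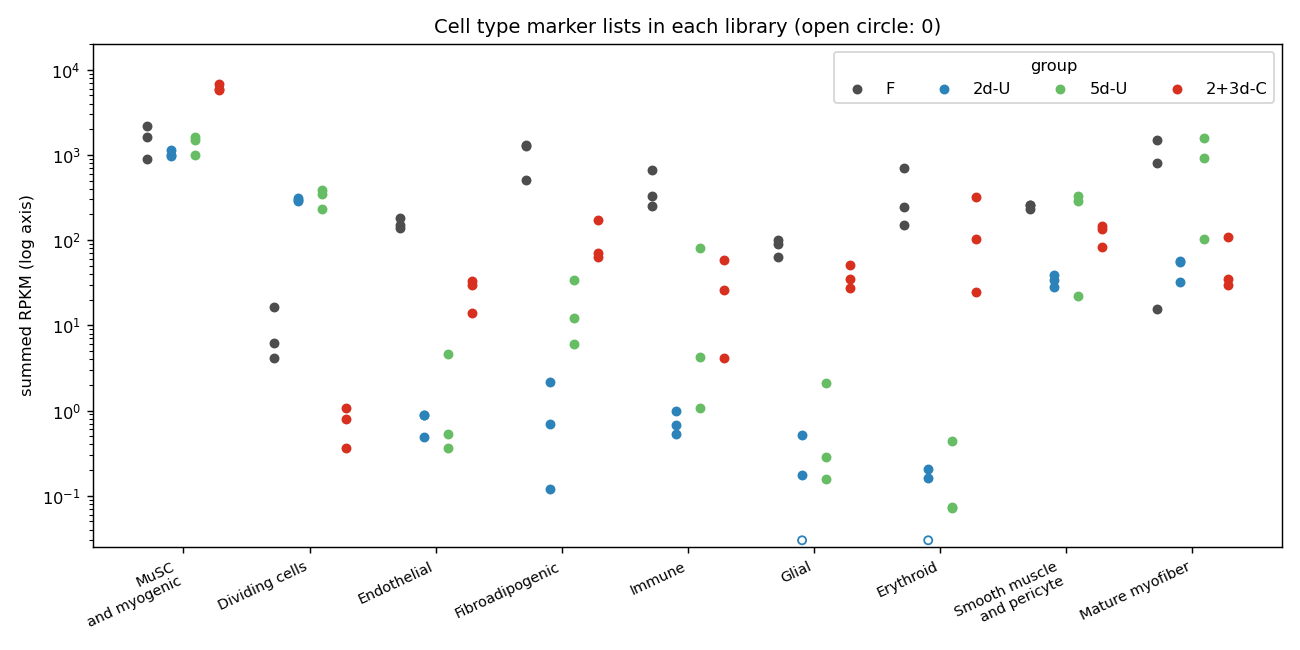
Summed RPKM (log axis) of each cell type marker list, with 1 point per library coloured by group; open circles mark a sum of 0. Markers of dividing cells are at 231 to 391 in 5d-U and at most 1.08 in 2+3d-C, and endothelial, fibroadipogenic, immune, glial and erythroid markers have their lowest libraries in 2d-U or 5d-U.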

How the data were processed

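RNA was sequenced from 12 libraries of sorted MuSCs, in 4 groups of 3 given by the labels, after amplification with a SMART-seq kit. The authors aligned the reads to mm10 and deposited raw read counts per gene from featureCounts v1.6.4 with the GENCODE vM23 annotation. Per the file headers, strand was ignored and reads touching exons of more than 1 gene were dropped. This touches Nr1d1 and Dbp, and a smaller share of the exons of Cry2 (4.67%) and Arntl (0.439%). The single tables and the merged table held the same counts. SMART-seq reads carry no molecular identifiers, so read floors cover counting error only.

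From these counts, genes were filtered with filterByExpr, scaled by TMM and fitted in edgeR 4.0.16 (R 4.3.3) with a coefficient for each group over all 12 libraries. Quasi-likelihood tests were adjusted by Benjamini-Hochberg over all 22635 genes tested and called at 0.05. The procedure was tested on simulated data. Standard errors are the log2 fold change divided by the root of F. RPKM used TMM-scaled library sizes and the exon lengths in the files, and a pseudocount of 0.1 was added for the levels of the 2 gene sets. A gene not called is not shown to be unchanged.

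The 10 clock genes, the wider list of 23, the marker lists and the rule for similar profiles (the nearest genes that averaged 5 CPM or more) were chosen with earlier results of these data known. Some genes of the pathway are not reported here. Genes named were these and genes overlapping them. Alternatives were RLE scaling, library size alone, no mitochondrial genes in scaling, no filter, a 5 CPM filter, a replicate block, stray reads deducted or given a model term, fits of 2 groups, DESeq2 1.42.0 and leaving out each library. The fit without the 4 libraries with stray reads was added after the data were seen. Batches of sorted cells were spread over conditions, but which libraries shared 1 was not given in the sources used here, and no fit with batch was made.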

Additional observations from a re-analysis of the deposited data

How the results depend on the processing

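Leaving out each library in turn left the count of clock genes called at 7 to 7 for 2+3d-C against 5d-U, 8 to 9 against 2d-U and 0 to 0 against F, at 0 to 0 for 5d-U against 2d-U, 7 to 10 for 2d-U against F, 6 to 7 for 5d-U against F, and 7 to 10 for any difference. For the wider list the ranges were 9 to 14, 7 to 13 (7 without 2d-U replicate 2), 0 to 5 (5 without F replicate 1), 0 to 1, 7 to 11 and 6 to 10 (6 without F replicate 5, 5d-U replicate 1 or 5d-U replicate 6). The share of all genes called in either direction also moved. It ran from 11.3% to 19.1% for 2+3d-C against 5d-U, 13.5% to 21.1% against 2d-U and 1.04% to 36.3% against F. For 5d-U against 2d-U it ran from 0.565% to 4.78%. For 2d-U against F it ran from 18.6% to 59.6%, and for 5d-U against F from 11.2% to 18.96%. For any difference it ran from 26.2% to 62.9%. The 36.3% came without F replicate 1, as did the 5 wider genes. DESeq2 called 7 and 1 of the wider list where edgeR called none, in 2+3d-C against F and 5d-U against 2d-U. Of all genes DESeq2 called 17.6% and 11.5% there. The fit without the 4 libraries with stray reads was an alternative chosen after seeing the data. Fewer genes of both lists were then called for 2+3d-C against 5d-U, 2d-U against F and 5d-U against F, with fewer samples in each fit. The medians of the clock genes there were 2.96, −2.31 and −2.89. With a model term for these libraries 6 clock genes were called lower for 2d-U against F, against 17.1% of all genes. The cause was not tested.

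Whether replicate numbers pair the libraries was not settled. Deviations of libraries with the same number correlated at −0.42 to 0.03, and those of other pairs at −0.44 to 0.48. With so wide a spread among other pairs, this check cannot exclude pairing. The 2+3d-C libraries share no replicate number with 5d-U or 2d-U, so a block on this number links them only through F. Libraries whose number occurs once add nothing to such a fit, which leaves few degrees of freedom. With the replicate block 3 clock genes were called higher for 2+3d-C against 5d-U and 1 against 2d-U, against 3.22% and 4.82% of all genes. Lower were 3 for 2d-U against F and 3 for 5d-U against F, against 9.50% and 3.66% of all genes. For any difference 3 were called, against 28.8% of all genes. The block reversed Per3 in 2+3d-C against 5d-U (log2 −0.94) and 5d-U against F (0.090), and Dbp in 2+3d-C against 5d-U (−3.62) and 2d-U (−2.21), 2d-U against F (0.089) and 5d-U against F (1.49). Dbp also turned to 1.99 and 1.51 in 2+3d-C and 5d-U against F without the 4 libraries, to 0.61 in 2+3d-C against F with the model term, and ran from −0.45 to 0.50 in 2+3d-C against 5d-U when single libraries were left out. None of these reversed values passed the threshold. Without Nr1d1 the balance of the 2 gene sets was −2.13 for 2+3d-C, −1.32 for 2d-U and, for 5d-U, −0.076 in place of 0.20. RLE scaling moved the median of all genes by more than 0.1 in most comparisons, to −0.90 for 2+3d-C against 5d-U and −0.81 for 5d-U against F, and in the latter 11.4% of all genes were then lower, against 8.90% with TMM. Per3 in 2d-U rested on 3 to 30 reads, so that its folds are limited by depth.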
